A study of Rattus norvegicus with 12 samples.

Results

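Expression of 10 genes used to recognize dendritic cells and related myeloid cells was followed in the pelvic floor muscle of rats after simulated birth injury (SBI). They were the C-type lectin receptors Clec9a, Clec7a, Clec4a and Clec10a, the sialic acid-binding receptor Cd33, the growth factor receptor Flt3, and the transcription factors Irf8, Irf4, Batf3 and Zbtb46, taken by gene symbol from a table of 30206 genes. Each symbol matched 1 row, and all 10 were among the 14599 genes that passed a filter on low counts. The filter needed a minimum level in only 3 libraries, so Batf3 passed with 1 to 20.2 counts per library and is treated as a low-count gene throughout.

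The libraries came from the pubocaudalis muscle of 3-month-old female Sprague-Dawley rats that had all been pregnant and had all received SBI, a vaginal balloon distension in late gestation. After parturition the pups were removed from some rats (non-lactating) and left with others (lactating, Lac), and muscle was taken at 1 or 3 weeks after SBI, which gave 1wk SBI and 3wk SBI as the groups without lactation and 1wk SBI + Lac and 3wk SBI + Lac as those with it. A library held RNA of 2 rats in a pool, with 3 pools per group (n = 3), and every SD and p-value here measures the spread between pools. No library of uninjured muscle was analysed here, and the lactating and non-lactating rats also differed in the presence of pups. Levels are given as CPM, counts scaled to a common library total after correction by the trimmed mean of M-values (TMM). This allows a gene to be compared between libraries but not with another gene, because transcript length was not taken into account.

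Dendritic cells take up antigen in tissues and present it to T cells. Conventional dendritic cells are commonly divided into a cross-presenting type 1, which depends on Irf8 and Batf3 and carries the dead-cell receptor Clec9a, and a type 2, for which Irf4 is important. Flt3 is the receptor for the cytokine that drives dendritic cell development, and Zbtb46 is a transcription factor of the conventional lineage that endothelial cells also express. Clec7a (Dectin-1) binds fungal and other beta-glucans and signals through Syk and Card9, Clec4a (DCIR) and Cd33 carry inhibitory tyrosine motifs, and Clec10a binds galactose-type sugars and is found on macrophages as well as on type 2 dendritic cells. Several of the 10 are therefore shared with monocytes and macrophages, and none of them alone counts dendritic cells in a muscle lysate.

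Promoter sequence is shown for Irf8, the transcription factor with the clearest separation at 1 week, for Clec7a, the receptor with the lowest adjusted p at 1 week, and for Flt3, the only gene of the 10 called at 3 weeks. The 250 bases upstream of each RefSeq start site in the rat assembly GRCr8 are written 5′ to 3′ on the strand of the gene, with motif matches in capitals. They lie at chr19:65699034-65699283 on the plus strand for Irf8, chr4:164599828-164600077 on the minus strand for Clec7a and chr12:12659785-12660034 on the plus strand for Flt3.
Irf8: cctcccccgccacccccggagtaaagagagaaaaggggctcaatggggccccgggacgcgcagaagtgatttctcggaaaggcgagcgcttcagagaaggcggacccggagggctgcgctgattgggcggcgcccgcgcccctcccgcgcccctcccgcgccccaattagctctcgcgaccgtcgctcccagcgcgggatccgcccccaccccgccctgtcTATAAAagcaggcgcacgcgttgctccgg
Clec7a: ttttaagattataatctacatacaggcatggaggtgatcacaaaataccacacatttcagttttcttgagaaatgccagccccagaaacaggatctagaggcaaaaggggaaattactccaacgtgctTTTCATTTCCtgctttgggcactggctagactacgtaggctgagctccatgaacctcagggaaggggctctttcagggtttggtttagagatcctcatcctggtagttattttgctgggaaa
Flt3: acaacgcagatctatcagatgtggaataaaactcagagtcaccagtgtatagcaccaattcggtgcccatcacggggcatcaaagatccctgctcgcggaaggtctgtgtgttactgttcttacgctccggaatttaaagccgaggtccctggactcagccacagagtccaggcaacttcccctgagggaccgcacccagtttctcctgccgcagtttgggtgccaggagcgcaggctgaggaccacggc
Both strands were searched for an ETS-IRF composite element (GGAA, any 2 bases, GAAA), tandem IRF half-sites (GAAA, any 2 bases, GAAA), AP-1 (TGANTCA), PU.1 (GAGGAAGT) and a TATA box (TATAAA), and the composite element and the tandem half-sites overlap in their last 4 letters. The capitals in Irf8 are a TATA box that begins 29 bases before the start site, and those in Clec7a are an ETS-IRF composite element read on the opposite strand that begins 122 bases before it. Flt3 held none of these letters in this window. Of 32589 rat promoters of this length, 2.5% held the composite element, 3.44% the tandem half-sites, 6.38% AP-1, 2.04% PU.1 and 12.9% the TATA box. Among the 9 genes of the 10 with a promoter entry, the composite element was found in 1 (Clec7a), the TATA box in 3 (Irf4, Irf8 and Zbtb46), and the other motifs in 0. A match of letters is a description and not a measured binding site.

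Library depth was uneven at 3 weeks. Totals ran from 30862144 to 51662983 counts in the 6 libraries of 1 week and from 10082734 to 75634391 in the 6 of 3 weeks, and 3 counts, the limit that a count of 0 allows, were worth 0.036 to 0.33 CPM. That limit covers counting error only. The approximate intervals of log2 fold changes given below rest on the standard error of the fit, which includes the spread between pools. The 3-week columns also held decimals in 26.6% to 44% of their values, whereas the 1-week columns held whole counts only, so that differences between time points cannot be told apart from differences in counting. In 3wk SBI the deepest pool (replicate 3) was the highest of its group for 8 of the 10 genes, and in 3wk SBI + Lac the deepest pool (replicate 2) was the highest for 7. The same pools also held the highest leukocyte gene levels of their groups, given below, so depth and cell content cannot be told apart there. Totals were more even at 1 week, where the deepest pool was the highest for 7 of the 10 genes in 1wk SBI + Lac and for 2 in 1wk SBI. However, every 1wk SBI total (41201635 to 51662983) was above every 1wk SBI + Lac total (30862144 to 39844090). Depth therefore went with lactation at 1 week. With counts thinned to the lowest total of the time point, Flt3 at 3 weeks was at -1.51 on the log2 scale (adjusted p = 0.0633 by edgeR), and values without the deepest pools are given beside the genes they change.

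**Figure D1:**
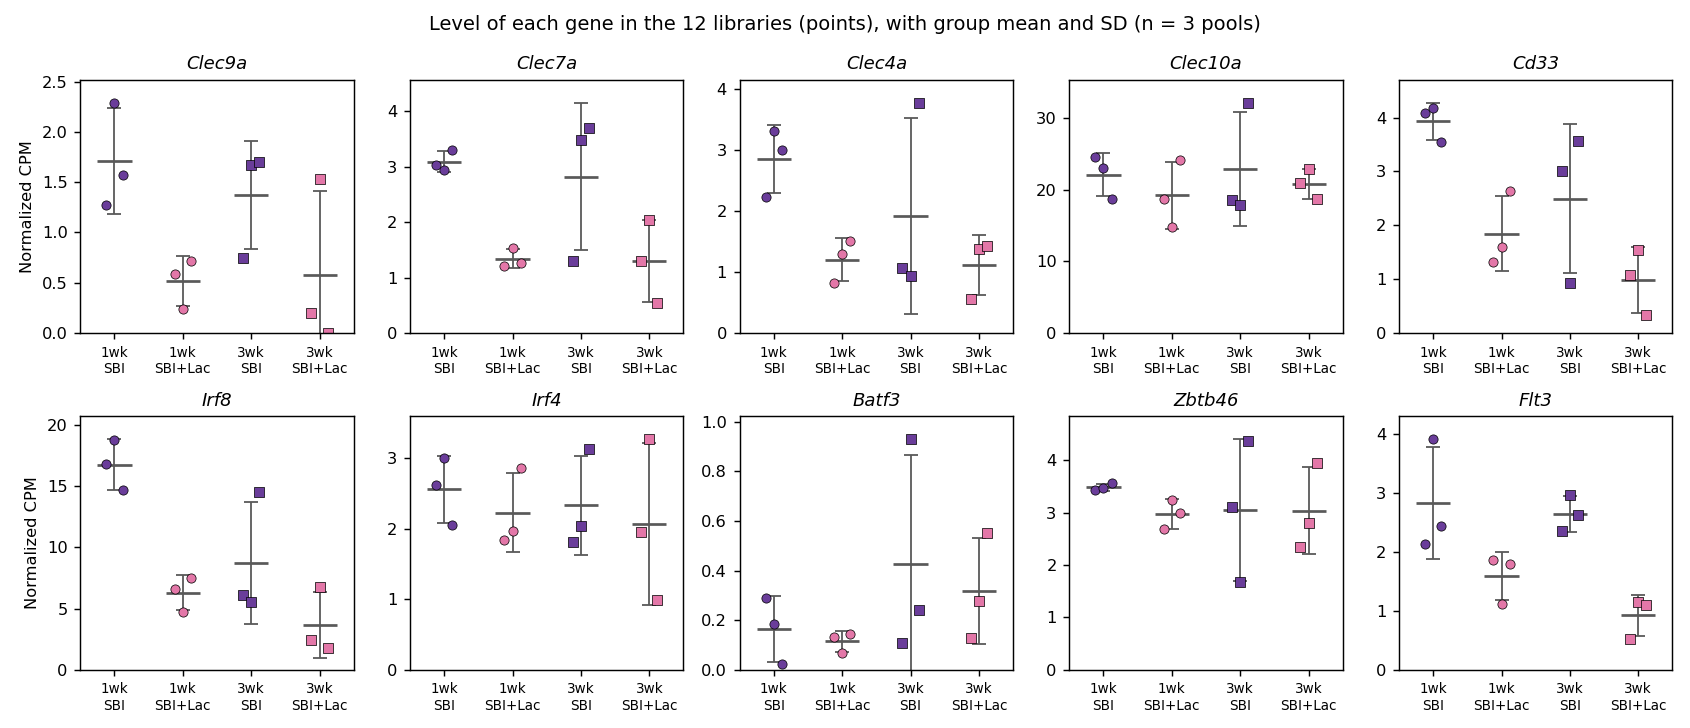
Normalized CPM of each gene (vertical axis, linear from 0, scaled per gene) in the 12 libraries, by group. Points are pools of 2 rats, long bars the mean and whiskers the SD of 3 pools, drawn down to 0 where they would pass below it. The lactating pools of 1 week sit below all non-lactating pools for Irf8, Clec9a, Clec7a, Clec4a, Cd33, Flt3 and Zbtb46, and the 3-week pools overlap for every gene but Flt3.

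The first comparison asked how lactation was related to these genes at 1 week after SBI. No gene of the 10 passed the call, an adjusted p under 0.05 (edgeR quasi-likelihood test, Benjamini-Hochberg over all 14599 genes) with an absolute log2 fold change over 1, where 0.253% of all genes did. At an unadjusted p under 0.05 there were 6 of the 10, against 18.9% of all genes. All 10 had a negative log2 fold change (50.5% of all genes), with a median of -0.95 against -0.0038 over all genes tested. In 7 of the 10 every lactating pool was below every non-lactating pool, which was the case for 14.1% of all genes. Clec9a, Clec4a, Irf8, Cd33 and Clec7a had been picked out by the study from these same 1-week libraries and are not independent evidence of a direction there. The median of these 5 was -1.23 and that of the other 5 was -0.23.

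Among the C-type lectins, Clec7a was at 3.03, 2.94 and 3.30 CPM in the 1wk SBI pools and at 1.21, 1.53 and 1.27 CPM in the 1wk SBI + Lac pools. The groups did not overlap and each was tight. The log2 fold change was -1.21 (SE 0.37, adjusted p = 0.106 by edgeR), the lowest adjusted p of the 10 at 1 week. Clec9a was at 1.27, 2.29 and 1.57 CPM without lactation and at 0.59, 0.237 and 0.717 CPM with it. It had the most negative log2 fold change of the 10, -1.7, with a wide error (SE 0.71, adjusted p = 0.217 by edgeR), and rested on 7 to 30 counts in the lactating pools. Clec4a was at 2.24, 3.32 and 3.00 CPM without lactation and at 0.82, 1.29 and 1.51 CPM with it, again with no overlap (log2 fold change -1.23, SE 0.47, adjusted p = 0.177 by edgeR).

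Clec10a, the lectin shared by macrophages and type 2 dendritic cells, did not separate the groups. It was at 24.5, 23 and 18.7 CPM in 1wk SBI and at 18.7, 14.8 and 24.1 CPM in 1wk SBI + Lac. The log2 fold change was -0.2 (adjusted p = 0.652 by edgeR), and an approximate interval of about 2 SE on either side ran from -0.63 to 0.23. That interval does not reach a change of 2-fold in either direction. No test compared the genes with one another.

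The remaining receptors were intermediate. Cd33 was at 4.09, 4.17 and 3.54 CPM in 1wk SBI and at 1.31, 1.59 and 2.63 CPM in 1wk SBI + Lac, without overlap (log2 fold change -1.08, SE 0.42, adjusted p = 0.187 by edgeR). Flt3 was at 2.13, 3.91 and 2.44 CPM without lactation and at 1.87, 1.12 and 1.79 CPM with it. The Flt3 pools were separated by a narrow gap, with a log2 fold change of -0.82 (SE 0.33, adjusted p = 0.191 by edgeR).

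Of the transcription factors, Irf8 was at 16.8, 18.8 and 14.7 CPM in the 1wk SBI pools and at 6.59, 4.75 and 7.53 CPM in the 1wk SBI + Lac pools. The non-lactating pools lay far above the lactating pools, with a gap wider than the range of either group. The log2 fold change was -1.41 (SE 0.44, adjusted p = 0.125 by edgeR), that is, a level 2.66-fold higher without lactation. Irf4, its relative in the same family, was at 2.63, 3 and 2.06 CPM without lactation and at 1.84, 1.97 and 2.87 CPM with it. The Irf4 pools overlapped, with a log2 fold change of -0.2 and an approximate interval from -0.87 to 0.47 (adjusted p = 0.785 by edgeR). Zbtb46 was at 3.43, 3.48 and 3.56 CPM in 1wk SBI and at 2.69, 3.25 and 2.99 CPM in 1wk SBI + Lac, a small shift without overlap (log2 fold change -0.23, SE 0.28, adjusted p = 0.694 by edgeR). Batf3 had 18, 11 and 1 counts in the non-lactating pools and 4, 2 and 6 in the lactating pools, too few to place it.

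The call at 1 week depended on the tool and on the libraries fitted. Given the 6 libraries of 1 week alone, edgeR called 2 of 9 genes fitted, Clec7a (adjusted p = 0.033) and Irf8 (adjusted p = 0.0241), where 0.769% of all genes were called. DESeq2 on the same 6 called 5, which were Clec9a, Clec7a, Clec4a, Cd33 and Irf8, where 2.25% of all genes were called. Those 5 are the genes that the study had named from these libraries, also with DESeq2 and the same cutoffs. That fit therefore largely repeats the selection of the 5 and is not independent of it. The log2 fold changes were nearly the same in all of these fits, for example -1.41 for Irf8 with all 12 libraries by edgeR and -1.41 with the 6 by DESeq2.

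**Figure D2:**
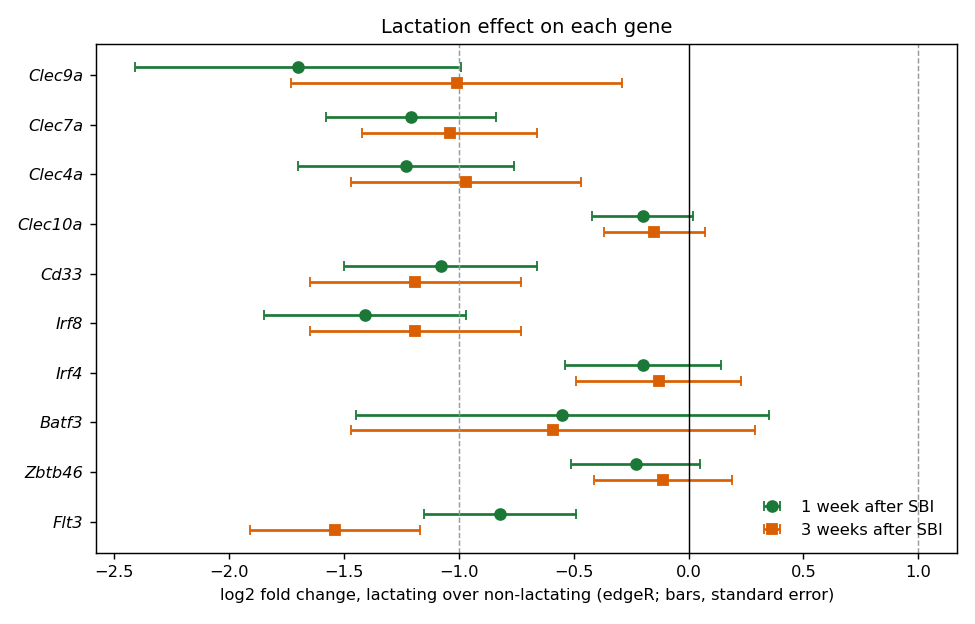
Log2 fold change of lactating over non-lactating pools (horizontal axis) for each gene at 1 week (circles) and 3 weeks (squares) after SBI, with bars of 1 standard error from edgeR. Dashed lines mark a log2 fold change of 1 in either direction. All 20 estimates are below 0, those of Clec10a, Irf4 and Zbtb46 lie between -0.23 and -0.11, and Flt3 at 3 weeks (-1.54) is the 1 estimate that passed the call.

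The same comparison was made at 3 weeks, in other rats. Flt3 was the 1 gene of the 10 called, with 0.74% of all genes called and 0.534% called lower. Unadjusted p was under 0.05 for 4 of the 10 (21.1% of all genes). All 10 log2 fold changes were again negative (52.3% of all genes), with a median of -0.99 against -0.0192 over all genes. Pools did not overlap for Flt3 only, where 10.4% of all genes were lower in every lactating pool.

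Flt3 was at 2.36, 2.97 and 2.62 CPM in the 3wk SBI pools and at 0.521, 1.15 and 1.1 CPM in the 3wk SBI + Lac pools. These levels rested on 22, 48 and 218 counts without lactation and on 16, 71 and 10 counts with it. Non-lactating pools were close together in spite of their uneven totals, and all lay above the lactating pools. Flt3 fell by 1.54 on the log2 scale with lactation (SE 0.37, adjusted p = 0.0408 by edgeR), or 2.91-fold. The call was near its threshold and was lost, with adjusted p of 0.0689 to 0.147, on leaving out any 1 of the 3-week libraries other than 3wk SBI replicate 1. The direction was kept in each of these fits. The fitted effect at 3 weeks differed from that at 1 week by -0.72 (SE 0.49, adjusted p = 0.999 by edgeR), so a difference between the time points was not shown.

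Other receptors were more scattered at 3 weeks. Clec7a was at 1.29, 3.47 and 3.7 CPM in 3wk SBI and at 1.3, 2.03 and 0.55 CPM in 3wk SBI + Lac. The shallowest library of each group held the lowest value, with 12 and 5 counts, and the groups overlapped (log2 fold change -1.04, SE 0.38, adjusted p = 0.137 by edgeR). Cd33 was at 3, 0.929 and 3.56 CPM without lactation and at 1.07, 1.54 and 0.33 CPM with it (log2 fold change -1.19, SE 0.46, adjusted p = 0.158 by edgeR). Clec9a was at 0.751, 1.67 and 1.7 CPM without lactation and at 0.195, 1.53 and 0 CPM with it. The 0 was a count of 0 in a library in which 3 counts would be 0.33 CPM, and the high lactating value was that of the deepest pool (log2 fold change -1.01, SE 0.72, adjusted p = 0.449 by edgeR).

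Clec4a was at 1.07, 0.929 and 3.78 CPM in 3wk SBI and at 0.554, 1.38 and 1.43 CPM in 3wk SBI + Lac. Only the deepest non-lactating pool stood above the lactating pools. The log2 fold change was -0.97 (adjusted p = 0.287 by edgeR) and became 0.14 without 3wk SBI replicate 3. Clec10a was at 18.6, 17.9 and 32.1 CPM without lactation and at 20.9, 22.9 and 18.7 CPM with it, and its log2 fold change likewise went from -0.15 to 0.21 without that pool.

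Irf8 at 3 weeks was at 6.11, 5.57 and 14.5 CPM in 3wk SBI and at 2.44, 6.73 and 1.76 CPM in 3wk SBI + Lac. The highest pool of each group was its deepest. Its log2 fold change was -1.19 (SE 0.46, adjusted p = 0.173 by edgeR), -0.51 without 3wk SBI replicate 3 and -2.06 without 3wk SBI + Lac replicate 2. Irf4 was at 1.82, 2.04 and 3.14 CPM without lactation and at 1.95, 3.27 and 0.989 CPM with it, with an approximate interval of the log2 fold change from -0.83 to 0.57. Zbtb46 was at 3.11, 1.67 and 4.37 CPM without lactation and at 2.34, 2.81 and 3.96 CPM with it, with an interval from -0.69 to 0.48. Neither gene separated the groups. Batf3 ran from 0.107 to 0.929 CPM over the 6 pools, on 1 to 20.2 counts. Without 3wk SBI replicate 3, only 6 of the 10 genes kept a negative log2 fold change.

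The lactation effects of the 2 time points were compared within the same fit. No gene of the 10 differed at the call (0.00685% of all genes did by edgeR) and 0 had an unadjusted p under 0.05 (4.42% of all genes). DESeq2 also called 0. The differences of log2 fold changes ran from -0.72 for Flt3 to 0.7 for Clec9a, with standard errors from 0.31 for Clec10a to 1.53 for Batf3.

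Between time points, no gene of the 10 was called without lactation (1.46% of all genes were) or with lactation (0.774%), and DESeq2 called 0 in both. An unadjusted p under 0.05 was found for 0 genes without lactation and for 1 with it, Flt3 (21.2% and 18.1% of all genes). Irf8 was the 1 gene whose non-lactating pools did not overlap between the times, with 14.7 to 18.8 CPM at 1 week and 5.57 to 14.5 CPM at 3 weeks, where 11.4% of all genes were lower in every 3-week pool. Its log2 fold change was -0.86 (SE 0.44, adjusted p = 0.289 by edgeR). Without 3wk SBI replicate 3, Irf8 (-1.53, adjusted p = 0.0421) and Clec4a (-1.52, adjusted p = 0.0391) passed the call, in a fit where 3.75% of all genes did. These comparisons share their libraries with the lactation comparisons.

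The levels of leukocyte genes moved with these results. The summed level of 10 pan-leukocyte genes, among them Ptprc (CD45), was 169 to 208 CPM in 1wk SBI, 112 to 139 CPM in 1wk SBI + Lac, 123 to 242 CPM in 3wk SBI and 91.1 to 131.5 CPM in 3wk SBI + Lac. All 9 of those tested had a negative log2 fold change at both times, with medians of -0.78 and -0.8, and 0 were called. At 3 weeks the highest sum of each group was that of its deepest pool. It was 241.7 CPM in 3wk SBI replicate 3, against 123.4 and 133.2 CPM in replicates 1 and 2. That pool also had the lowest myofiber sum of its group (167887.3 CPM) and the highest fibroblast sum (7642.6 CPM). Myofiber genes summed to 117836.2 to 182279.8 CPM in 1wk SBI and 180398.6 to 214842.3 CPM in 1wk SBI + Lac, and 13 of 13 had positive log2 fold changes at 1 week (median 0.5). Endothelial genes had medians of -0.06 and -0.09. Lower values were not limited to leukocyte genes. Of 10 satellite cell and regenerating muscle genes, 9 were negative at both times (medians -1.05 and -0.97, 0 called), and their summed level was 2507.1 to 5652.4 CPM in 1wk SBI and 1232.9 to 1859.5 CPM in 1wk SBI + Lac. Of 10 fibroblast genes, 9 were negative at both times (medians -0.44 and -0.65, 0 called). In a muscle lysate, fewer cells of a type and less RNA of a gene per cell cannot be told apart.

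To show each gene beside the leukocyte genes of the same library, its CPM was divided by the leukocyte sum. These ratios were chosen after the levels had been seen and are descriptions without a test. The sum is weighted to its genes at the highest levels, Lcp1 (log2 fold change -0.65 at 1 week) and Cd48 (-0.25), against a list median of -0.78. A gene that changed as much as that median can thus be lower on this scale. At 1 week Irf8 was at 89.7, 90 and 87 CPM per 1000 CPM of leukocyte genes in the non-lactating pools and at 53.5, 42.4 and 54.3 in the lactating pools. On this scale 5 of the 10 genes were lower in every lactating pool, namely Irf8, Clec9a, Clec7a, Clec4a and Cd33, where 1.82% of all genes were. Those are the same 5 that the study had named from these libraries. Clec10a, Irf4 and Zbtb46 were higher in every lactating pool on this scale, as were 63.4% of all genes.

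At 3 weeks none of the 10 genes was lower in every lactating pool relative to leukocyte genes (1.29% of all genes were). Irf8 was at 49.6, 41.8 and 60.1 per 1000 CPM without lactation and at 24.3, 51.2 and 19.3 with it, and the pool that overlapped was the deepest of its group. Clec10a was the 1 gene higher in every lactating pool, at 150.4, 134.4 and 132.7 without lactation and at 207.4, 174.3 and 205.1 with it (21.9% of all genes were).

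Irf8 and Irf4, which are set against each other in accounts of type 1 and type 2 dendritic cells, were compared within each library. The ratio of Irf8 to Irf4 counts was 6.41, 6.25 and 7.12 in 1wk SBI and 3.59, 2.41 and 2.62 in 1wk SBI + Lac. It was 3.36, 2.73 and 4.62 in 3wk SBI and 1.25, 2.06 and 1.78 in 3wk SBI + Lac. Every lactating pool was below every non-lactating pool of its time point, and 5.06% of all genes at 1 week and 2.45% at 3 weeks had such a lower ratio to Irf4. The ratio depends on transcript lengths and both genes are used by B cells and macrophages too, so its size has no meaning as a ratio of cells. B cell genes summed to 12.3 to 19.4 CPM over the 1-week libraries and to 14 to 67.6 CPM over those of 3 weeks. Ebf1 made up most of the 1-week sum, with means of 12.6 CPM in 1wk SBI and 11.4 CPM in 1wk SBI + Lac. Jchain varied widely at 3 weeks, at a mean of 16 CPM (SD 24.4) in 3wk SBI and 13.2 CPM (SD 17.1) in 3wk SBI + Lac. The sum therefore follows these genes more than the rest of the list.

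**Figure D3:**
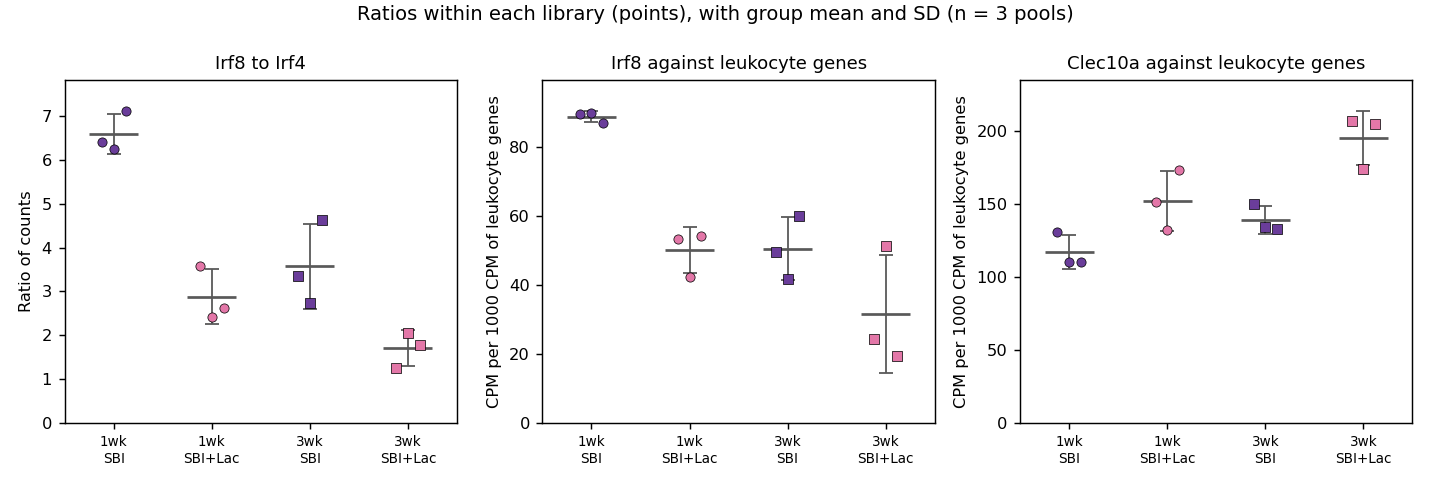
Ratio of Irf8 to Irf4 counts (left), and CPM of Irf8 (middle) and Clec10a (right) per 1000 CPM of 10 leukocyte genes, in each of the 12 libraries. Points are pools, long bars the mean and whiskers the SD of 3 pools. The Irf8 to Irf4 ratio is lower in the lactating pools at both times (2.41 to 3.59 against 6.25 to 7.12 at 1 week). Such a lower ratio to Irf4 held for 5.06% of all genes at 1 week and 2.45% at 3 weeks. Clec10a on the leukocyte scale is higher in them at both times (132.4 to 173.6 against 110.4 to 130.7 at 1 week). The same held for 63.4% of all genes at 1 week and 21.9% at 3 weeks.

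Covariation of the 10 genes was described over the 12 libraries after the mean of each time point had been removed. The points share the contrast of lactation, the leukocyte content and the depth of their libraries, so the coefficients are descriptions. Irf8 went with Clec9a (r = 0.9), Cd33 (0.87) and Clec7a (0.85). Irf4 went with the same genes (0.81, 0.74 and 0.69), with Irf8 (0.74) and with Clec10a (0.7), and less with Clec4a (0.41) and Flt3 (0.31). Zbtb46 had coefficients of -0.17 with Clec9a and -0.1 with Clec7a, and Batf3 ran from -0.33 to 0.31. With the leukocyte sum, Irf8 had the highest coefficient (0.96), followed by Clec7a and Clec4a (both 0.82), and Zbtb46 (0.35) and Batf3 (0.09) had the lowest.

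**Figure D4:**
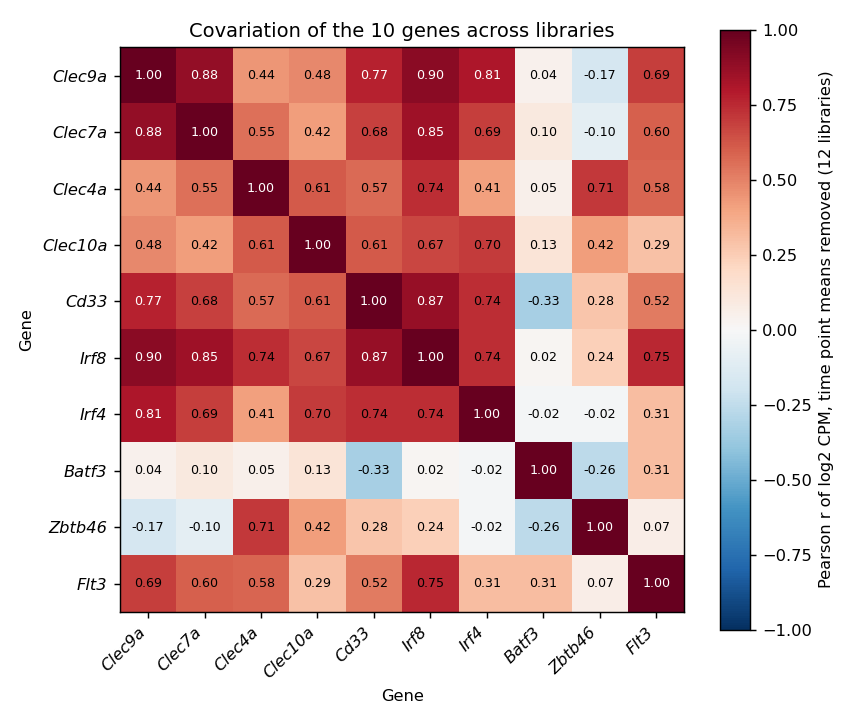
Pearson r of log2 CPM between each pair of the 10 genes over 12 libraries, with time point means removed. Color runs from -1 (blue) to 1 (red). Irf8, Irf4, Clec9a, Clec7a and Cd33 have r from 0.68 to 0.9 with one another. Some pairs with other genes are as high, such as Irf8 with Flt3 (0.75) and Clec4a (0.74), and Irf4 with Clec10a (0.7). The rows of Batf3 and, apart from Clec4a (0.71) and Clec10a (0.42), Zbtb46 are pale.

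The genes most like 5 of the 10 over these libraries were found among all genes tested. For Irf8 they were Tlr2 (r = 0.98), Cyba (0.98) and Coro1a (0.97). For Clec7a they were Galnt6 (0.98), Slit2 (0.96) and Ccnf (0.95), and for Clec10a Gng2 (0.95), AABR07002969.1 (0.94) and the complement gene C1qa (0.94). Flt3 was nearest to Zfp90 (0.97), Osbpl5 (0.92) and Morn4 (0.91), and Zbtb46 to Yes1 (0.91), Zfp82 (0.89) and Sinhcaf (0.89). Of the 3 genes nearest to Irf8, Coro1a is itself one of the pan-leukocyte genes summed above.

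Genes of the same pathways were then counted. In the type 1 dendritic cell list, 7 of 10 tested genes had a negative log2 fold change at 1 week and 6 at 3 weeks (medians -0.27 and -0.15), and 1 was called at each time, in the opposite direction. This was Nfil3, a transcription factor required for type 1 dendritic cell development that also follows the circadian clock and is expressed in many tissues. Nfil3 was at 11.3, 10.9 and 12.6 CPM in 1wk SBI and at 24.3, 25.2 and 21.3 CPM in 1wk SBI + Lac. At 3 weeks it was at 12, 11.6 and 8.37 CPM without lactation and at 32, 25.8 and 25.3 CPM with it. It rose at both times, by 1.02 (SE 0.14, adjusted p = 0.00998) and 1.42 (SE 0.15, adjusted p = 0.00143) on the log2 scale by edgeR, with no overlap between pools.

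In the plasmacytoid dendritic cell list, 10 of 11 genes were negative at both times (medians -0.64 and -0.93). The positive gene was Cox6a2 at 1 week (0.44) and Pacsin1 at 3 weeks (0.55), neither of them called and both named after their values were seen. Cox6a2, a respiratory chain subunit that is abundant in striated muscle, was at a mean of 487.5 CPM, so the summed level of that list does not follow dendritic cells. Spib, an ETS factor of plasmacytoid dendritic and B cells, was the 1 called, at 3 weeks. It was at 0.751, 0.619 and 1.08 CPM in 3wk SBI and at 0.0326, 0.211 and 0 CPM in 3wk SBI + Lac, on 0 to 13 counts in the lactating pools, and fell by 2.8 on the log2 scale (SE 0.65, adjusted p = 0.0383 by edgeR). At 1 week its pools, at 0.801 to 1.84 CPM and 0.358 to 0.525 CPM, did not overlap either, but Spib was not called there.

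Type 2 dendritic cell genes had 7 and 6 of 10 negative (medians -0.38 and -0.44), with 0 called. The 3 at the highest levels were the Notch effector Rbpj (0.04 and 0.01), Zeb2 (-0.41 and -0.53) and Notch2 (-0.34 and -0.36, log2 fold changes at 1 and 3 weeks), and Cd209a was listed at 0 in every library. Genes of mature dendritic cells had 11 and 12 of 13 negative (medians -0.72 and -0.44), with 0 called, and the highest in level were the actin-bundling gene Fscn1 (-0.77 at both times), the NF-kB subunit gene Relb (-0.24 and -0.44) and Socs2 (-0.2 and -0.16). Integrin and growth factor genes of dendritic cells had 7 and 9 of 10 negative (medians -0.2 and -0.31) and 0 called, with Stat5b (0.37 and -0.1), Stat3 (-0.09 and -0.31) and Csf1r (-0.31 and -0.45) highest in level.

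The IRF family and its partners, without Irf8 and Irf4, had 13 and 16 of 17 negative (medians -0.7 and -0.56), and Spib, which is also in this list, was the 1 called. In a list of Syk and Card9 signaling genes, 15 and 14 of 18 were negative (medians -0.4 and -0.47), with 0 called. Card9 itself was not among the 18, and the list, which holds Fcer1g and Tyrobp, is not particular to Clec7a. In 10 of the 18 every lactating pool of 1 week was the lower, against 14.1% of all genes, and in 3 of the 18 at 3 weeks, against 10.4% of all genes. The highest in level, Nfkb1 (-0.14 and 0.06), Rela (-0.08 and 0.05) and Fcer1g (-0.53 and -0.82), did not pass the test. Inhibitory receptors and their phosphatases, the group to which Cd33 and Clec4a belong by signaling, had 16 of 18 negative at both times (medians -0.75 and -0.66).

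Siglec10, a sialic acid-binding inhibitory receptor like Cd33, was the 1 called in that list, at 3 weeks. It was at 4.29, 1.11 and 3.76 CPM in 3wk SBI and at 0.456, 0.602 and 0.33 CPM in 3wk SBI + Lac, on 3 to 36.7 counts in the lactating pools, and fell by 2.6 on the log2 scale (SE 0.58, adjusted p = 0.0341 by edgeR). At 1 week it was at 1.89, 3.12 and 1.38 CPM without lactation and at 0.131, 0.576 and 0.764 CPM with it, without overlap and without a call.

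**Figure D5:**
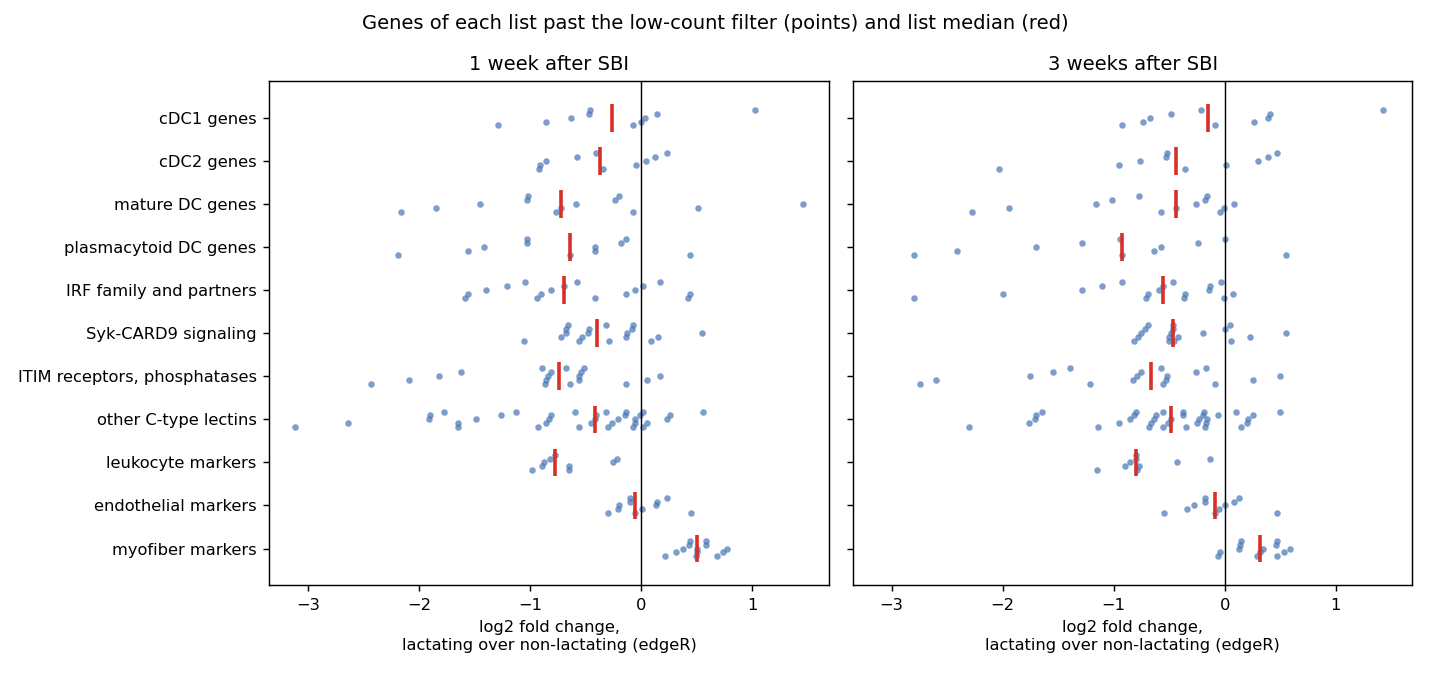
Log2 fold change of lactating over non-lactating pools (horizontal axis) for the tested genes of 11 lists at 1 week (left) and 3 weeks (right), each point a gene and each red bar the median of its list. Medians of the leukocyte list are -0.78 and -0.8, those of the endothelial list -0.06 and -0.09, and those of the myofiber list 0.5 and 0.32. The point far to the right among the type 1 dendritic cell genes is Nfil3.

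Other C-type lectins numbered 35 after the filter, of 62 in the table, and 9 of the 62 had 0 counts in every library. At both times 29 of the 35 were negative (medians -0.42 and -0.48), and 0 were called. Pools did not overlap and were lower with lactation for 14 of the 35 at 1 week and for 9 at 3 weeks (14.1% and 10.4% of all genes). The 3 at the highest levels were Clec2g (-0.01 and -0.17), the endothelial and myeloid gene Cd93 (-0.45 and -0.51) and Clec16a (0.23 and 0.21), which is named for a lectin-like stretch and works in autophagy.

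Neighbors of Clec9a, Clec7a and Clec4a were read from the gene order of chromosome 4 in GRCr8 and were named for their position. Clec9a and Clec7a lie in the Dectin-1 cluster with Clec1a between them. Clec1a was at 2.16 to 2.65 CPM in 1wk SBI and at 2.95 to 4.71 CPM in 1wk SBI + Lac, above every non-lactating pool (log2 fold change 0.56, SE 0.23, adjusted p = 0.2 by edgeR), where 14.3% of all genes were higher in every lactating pool. The 2 genes on either side of it thus had the opposite sign at 1 week. At 3 weeks the Clec1a pools overlapped (log2 fold change 0.15).

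Clec4a lies in another lectin cluster on the same chromosome beside its paralogs. Clec4a1 was at 12.7 to 16.5 CPM in 1wk SBI and at 6.44 to 9.15 CPM in 1wk SBI + Lac (log2 fold change -0.86, SE 0.25, adjusted p = 0.0944 by edgeR), and did not overlap at 3 weeks either (-0.85, SE 0.26, adjusted p = 0.0917). Clec4a3 had log2 fold changes of -0.93 and -0.95, Clec4a2 of -2.64 and -0.56 on under 1 CPM, and Clec4d of -1.49 and -0.62 on under 1 CPM. Clec4e, next to Clec4d, was at 0.05 and 0.1. Near-identical copies of this family can share reads, so the division of counts among Clec4a and its paralogs is uncertain.

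Markers of other leukocytes were read beside these results. Macrophage genes summed to 554.3 to 740.5 CPM in 1wk SBI and 380.4 to 529.8 CPM in 1wk SBI + Lac, and to 374.7 to 700 and 322.5 to 411.2 CPM at 3 weeks. Of 15 tested, 13 and 14 were negative, and Gpnmb was called lower at both times (-1.62 and -1.33, adjusted p = 0.00998 and 0.00934 by edgeR) and Cd68 at 3 weeks (-1.08, adjusted p = 0.015). Monocyte genes were negative in 10 of 10 at both times (medians -0.63 and -0.72), with 0 called. T cell genes were negative in 11 of 11 at both times (medians -0.87 and -1.17), with Cd8b (-2.48, adjusted p = 0.0485 by edgeR) and Cd28 (-1.99, adjusted p = 0.0219) called at 3 weeks. Over all genes, 0.253% were called at 1 week and 0.74% at 3 weeks. Cd8b was at a mean of 0.134 CPM in 3wk SBI + Lac, where 3 counts were worth up to 0.33 CPM. Cd28, at means of 10.4 and 2.64 CPM at 3 weeks, lay far above Cd3e (0.785 and 0.423 CPM), and whether it followed T cells was not tested. Of NK cell genes 6 and 7 of 7 were negative, of B cell genes 5 and 6 of 6, and of neutrophil genes 3 and 3 of 3, with 0 called. Negative values were thus found across the leukocyte lists, as well as among the regenerating muscle and fibroblast genes given above. The part of these cell types in the levels of the 10 genes was not tested.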

How the data were processed

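RNA of the pubocaudalis muscle was pooled from 2 rats per library, and libraries were made with a stranded mRNA kit. The submitters' processing notes name Salmon. The genome build and annotation were not given in the sources used here. The deposited table holds counts per gene by Ensembl identifier and symbol, whole at 1 week and, per the file itself, estimated counts with decimals at 3 weeks. The authors applied no normalization to these counts. The design had assumed whole counts, and the expected counts of 3 weeks, as the authors deposited them, were rounded to whole numbers.

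Groups came from the sample labels. All 12 libraries were fitted together with edgeR 4.0.16 (R 4.3.3; TMM scaling, filterByExpr, robust quasi-likelihood test), with Benjamini-Hochberg adjustment over 14599 genes. Genes were called at an adjusted p below 0.05 together with a log2 fold change beyond 1 in size, and the standard error was taken from the fold change and the F statistic. Fold changes of genes near 0 counts depend on the prior count. DESeq2 1.42.0, other scalings, filters, subsets, thinning and left-out libraries were alternatives. Scripts were tested on simulated data. Totals per library were 10082734 to 75634391. Replicate pairs differed by more than sampling noise (chi-square per degree of freedom 22.1 to 102).

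The 10 genes and all gene lists were chosen with earlier results of these data known. All 10 were named. Of each list, genes past both cutoffs were named, at most 3, or, where none passed, the 3 highest in level. Likeness was ranked by Pearson r for 5 of the genes. Neighbors and Clec1a, Clec4a1, Clec4a2, Clec4a3, Clec4d and Clec4e were named by position, after values had been seen. Promoters were from RefSeq, assembly GRCr8.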

Additional observations from a re-analysis of the deposited data

How the results depend on the processing

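At 1 week the count of the 10 genes called was 0 in the reported fit, 1 by DESeq2 on all 12 libraries (Clec7a, adjusted p = 0.0334), 5 by DESeq2 on the 6 libraries compared, 2 by edgeR on those 6, and 0 on leaving out each library in turn. At 3 weeks it was 1 (Flt3) in the reported fit, and 0 by edgeR on the 6 libraries compared (Flt3 adjusted p = 0.0816), with the replicate number as a block (0.0648), with counts thinned to the lowest total (0.0633) and without the deepest library of each 3-week group (0.136), an alternative chosen after seeing the data. Leaving out each library in turn gave 0 to 2, and the 2 were Flt3 and Clec7a without 3wk SBI replicate 1. Between time points without lactation the count was 0, 0 to 2 on leaving out each library, and 2 without the deepest libraries (Irf8 and Clec4a). With lactation it was 0, and 1 without the deepest libraries (Irf8, -1.51, adjusted p = 0.0167). Calls over all genes moved between fits too, as given below. Between time points without lactation they were 1.46% of all genes in the reported fit and 3.75% without 3wk SBI replicate 3. The counts among the 10 genes are therefore not read as results about those genes. The causes were not tested. Both single-time edgeR fits dropped Batf3 at the filter.

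Signs changed for genes with small or scattered effects. On leaving out each library in turn, the log2 fold change of Batf3 at 1 week ran from -1.01 to 0.075 (without 1wk SBI replicate 1). At 3 weeks that of Batf3 ran from -1.01 to 0.46 (without 3wk SBI replicate 2), Clec10a from -0.30 to 0.21, Clec4a from -1.29 to 0.14, Irf4 from -0.63 to 0.21 and Zbtb46 from -0.39 to 0.34, the last 4 highest without 3wk SBI replicate 3. Irf4 was also positive without 3wk SBI + Lac replicate 3 (0.12) and Zbtb46 without 3wk SBI + Lac replicate 1 (0.051). Batf3 was 0.47 after thinning, and without the deepest libraries Clec10a was 0.13 and Zbtb46 0.38. Counts were made for 24 fold changes of the 10 genes, the 20 of lactation at both times and 4 others (Irf8 in both time comparisons, Clec4a between times without lactation, and the difference of lactation effects for Flt3). Of their 366 alternative values, 332 kept direction and side of the threshold, 9 lost a call, 14 gained one and 11 changed sign. Of the 436 alternative values of the other 26 fold changes, 65 changed sign and 0 passed the call.

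Same-numbered pools did not deviate together (r from -0.233 to -0.0503), and no pool correlated best with its own number, so the numbers do not pair the samples. The block changed no other count of calls among the 10 genes. Over all genes, lactation calls numbered 37 at 1 week and 108 at 3 weeks, against 8 and 64 with the block, 110 and 73 by edgeR on the 6 libraries compared, and 189 and 247 by DESeq2 on all 12. On leaving out each library they ran from 2 to 235 at 1 week and from 22 to 157 at 3 weeks, and without the deepest libraries there were 14 at 3 weeks. Counts of Batf3 were low in every library, the deepest included (20.2 counts). Clec9a had 7 counts or fewer in 1wk SBI + Lac replicate 2, 3wk SBI replicate 1 and 3wk SBI + Lac replicates 1 and 3, which are not all shallow libraries.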
